A study of Homo sapiens with 8 samples.

Results

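The MYC, MAX and MXD network is a family of basic helix-loop-helix leucine zipper transcription factors that meet through a common partner, MAX. The 10 genes described here were listed by name, with earlier results of these data known and no threshold on a measured value, as the MYC genes (MYC, MYCN and MYCL), MAX, the MXD repressors (MXI1, MXD1, MXD3 and MXD4) and the larger MAX partners MNT and MGA. They are 10 of the 69215 genes listed in each library. Of these 10 genes, 9 passed the filter on low counts, and MYCN did not because it had no read in any library.

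MYC proteins need MAX to bind DNA and to activate genes of growth, ribosome production and metabolism. The MXD proteins and MNT compete for the same partner and the same sites, the E-box, and recruit SIN3 and histone deacetylases, so that they repress the genes that MYC activates. MGA also pairs with MAX and brings in a Polycomb complex. SMARCB1 is a core subunit of the SWI/SNF chromatin remodelling complexes and is known to contact MYC directly, which makes the MYC network a classical subject in tumours without SMARCB1.

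RNA was sequenced in G401, an established cell line that was derived from a kidney rhabdoid tumour and has lost SMARCB1. All libraries came from G401 cells carrying a Tet-On construct, in which doxycycline (Dox) switches on a transgene. The SMARCB1 line expresses SMARCB1 under Dox and the GFP line, its control, expresses GFP under the same system. The 4 groups were SMARCB1 DMSO and GFP DMSO, which received the solvent dimethylsulfoxide, and SMARCB1 Dox and GFP Dox, which received 0.1 µg/ml Dox, each for 12 h. Each group had 2 libraries, so the number of lines is 1 for each transgene, and differences between the lines without Dox cannot be told apart from differences between 2 separately engineered populations. Several plates of cells were pooled per condition. The study's methods call the experiments duplicates but do not say that the libraries of a group came from separate cultures. The p-values therefore measure only the spread between these libraries, which may be technical. That spread was estimated over the 4 groups together, though it was unequal between them. Over the genes tested, the chi-square per degree of freedom between a group's 2 libraries was 20.4 in SMARCB1 DMSO. It was 12.4 in SMARCB1 Dox, 7.65 in GFP DMSO and 8.99 in GFP Dox. The part of this inequality in the calls was not tested. In bulk RNA, fewer cells of a type and less RNA per cell cannot be told apart.

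Between 29632090 and 37597477 counts were assigned to genes per library. SMARCB1 had 10 and 21 counts in SMARCB1 DMSO, 848 ± 10.9 CPM (gene counts relative to the TMM-scaled library size, SD, n = 2) in SMARCB1 Dox and no count in the 4 GFP libraries, as the labels of the libraries say. Among markers, VIM, KRT8 and KRT18, which rhabdoid cells express, had group means of at least 227 CPM. PTPRC and CD3E of leukocytes, PECAM1 of endothelium and EPCAM of epithelium had group means of at most 0.130 CPM, and CDH1 and CDH5 of at most 0.851 and 0.354 CPM. The mitochondrial genome supplied 27.9% and 23.9% of the gene counts in the SMARCB1 DMSO libraries, 22.9% and 21.3% with Dox in the same line and 18.9% to 21.5% in the GFP libraries. This share was thus highest in SMARCB1 DMSO, and its part in the comparisons with that group was not tested. In what follows a gene is called, or said to have risen or fallen, at a Benjamini-Hochberg adjusted p under 0.05 in edgeR's quasi-likelihood test over all 15931 genes tested.

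The E-box, the site that MYC-MAX and MXD-MAX pairs share, was looked for in the promoters of the network genes themselves. RefSeq (GRCh38.p14) gave 14 windows of 300 bases, from 250 before to 50 after a transcript start, for 9 of the 10 genes. MYC had no window in this source, so its promoter was not searched. The palindrome CACGTG was present in the promoters of MXD4 and MNT, which is 2 of 9 genes (22.2%) and 2 of 14 windows (14.3%). Over all promoters it was present in 8.77% of the 27305 genes with a window and 7.26% of the 35116 windows. The 2 stretches are printed because they are the network's own promoters that hold the site to which its proteins bind, with the site in capitals. Both lie on the minus strand and upstream of the annotated gene, MXD4 at chr4:2262210-2262359 and MNT at chr17:2401161-2401310, and are written in the direction of transcription.
MXD4: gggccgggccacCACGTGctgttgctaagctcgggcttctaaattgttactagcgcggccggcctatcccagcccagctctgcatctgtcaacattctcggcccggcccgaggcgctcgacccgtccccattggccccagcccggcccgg
MNT: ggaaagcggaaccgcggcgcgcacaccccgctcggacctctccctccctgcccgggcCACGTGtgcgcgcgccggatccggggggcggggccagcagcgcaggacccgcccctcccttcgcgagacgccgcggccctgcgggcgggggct
The site began 238 bases before the start of MXD4 and 193 bases before that of MNT. The related sequence CACGCG, searched on both strands, was present in windows of MXI1, MXD3 and MGA. This is 3 of 9 genes (33.3%) beside 13.5% of all genes, and 21.4% of windows beside 11.4% of all windows. It was never in the same window as CACGTG among these 9 genes. A match of letters is a description and no measurement of binding.

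MYC fell in SMARCB1 Dox and was the only one of the 9 network genes tested that did. MYC is the most widely expressed gene of the family and lies at chr8:127735434-127742951 on the plus strand. Its level was 148 and 137 CPM in SMARCB1 DMSO and 110 and 96.7 CPM in SMARCB1 Dox. In the GFP line it was 160 and 169 CPM with DMSO and 170 and 178 CPM with Dox. Both SMARCB1 Dox libraries were below all other libraries, and the GFP libraries were the highest of the 8.

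The group means were 142 ± 7.70, 103 ± 9.29, 165 ± 6.60 and 174 ± 5.80 CPM (SD, n = 2 each) in SMARCB1 DMSO, SMARCB1 Dox, GFP DMSO and GFP Dox. The Dox effect on MYC in the SMARCB1 line was a log2 fold change of -0.46 (SE 0.0842, 95% interval -0.63 to -0.28), a change of -27.3% (edgeR, Benjamini-Hochberg adjusted p = 0.000631). In all, 1327 genes were called higher and 907 lower in this comparison, and 1986 and 497 under scaling by library totals. The fall of MYC was called under each of the 15 alternatives run, with log2 fold changes from -0.55 to -0.36. For the GFP line the log2 fold change of MYC was 0.08 (SE 0.0833, 95% interval -0.10 to 0.25) and was not called (edgeR, adjusted p = 1). The difference between the 2 Dox effects was itself tested and was -0.54 on the log2 scale (SE 0.118, 95% interval -0.78 to -0.29, edgeR adjusted p = 0.00898). It was not called without GFP DMSO replicate 1 (-0.49, edgeR adjusted p = 0.0605) or without GFP Dox replicate 2 (-0.50, adjusted p = 0.0625).

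**Figure D1:**
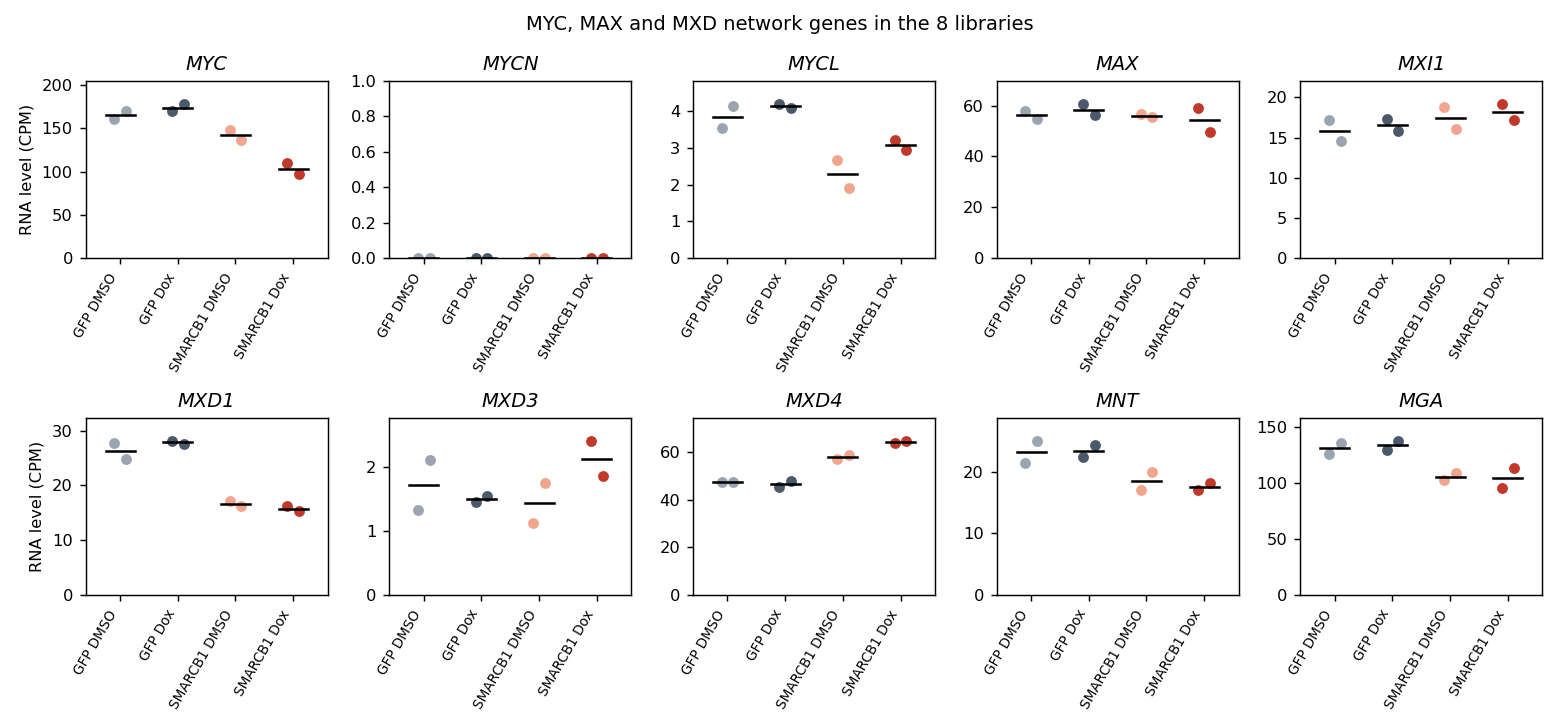
RNA level of each of the 10 network genes in CPM (vertical axis, from 0, scaled per gene) by group, with 1 point per library and a line at the mean of 2. For MYC the 2 SMARCB1 Dox libraries, at 110 and 96.7 CPM, lie below the other 6, and for MXD1 the 4 SMARCB1-line libraries lie below the 4 GFP-line libraries.

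MYCN, the paralogue known from neuroblastoma, lies at chr2:15940550-15947007 on the plus strand. It had 0 counts in each of the 8 libraries, which by a floor of 3 counts allows a level of up to 0.0798 to 0.101 CPM per library, for counting error only. MYCL, the paralogue first found in lung cancer, lies at chr1:39895428-39902256 on the minus strand and was low in all groups. Its level was 2.68 and 1.91 CPM in SMARCB1 DMSO, 3.20 and 2.95 CPM in SMARCB1 Dox, 3.55 and 4.14 CPM in GFP DMSO and 4.19 and 4.07 CPM in GFP Dox. The SMARCB1 Dox libraries were above the SMARCB1 DMSO libraries, and all 4 GFP libraries were above those of the SMARCB1 line. The Dox effect on MYCL in the SMARCB1 line was 0.43 on the log2 scale with a 95% interval of -0.02 to 0.88, and was not called (edgeR, adjusted p = 0.216).

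MAX, the partner that the other proteins of the network share, lies at chr14:65006174-65102695 on the minus strand. Its level was 56.7 and 55.4 CPM in SMARCB1 DMSO, 58.9 and 49.6 CPM in SMARCB1 Dox, 57.7 and 54.8 CPM in GFP DMSO and 60.5 and 56.2 CPM in GFP Dox. The groups overlapped in all comparisons. The Dox effect on MAX in the SMARCB1 line was -0.05 on the log2 scale (95% interval -0.23 to 0.14), so these libraries allow a fall or a rise of that size (edgeR, adjusted p = 0.810). The exons of MAX overlap those of FNTB on the other strand over 13.1% of their bases, and it was not stated whether the counting used the strand.

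MXD4, one of the repressors that compete with MYC for MAX, was the most abundant of the 4 MXD genes and lies at chr4:2247432-2262109 on the minus strand. Its level was 57.1 and 58.7 CPM in SMARCB1 DMSO and 63.9 and 64.7 CPM in SMARCB1 Dox, and 47.5 and 47.4 CPM in GFP DMSO and 45.1 and 47.8 CPM in GFP Dox. The 2 SMARCB1 Dox libraries were the highest of the 8. The Dox effect on MXD4 in the SMARCB1 line was 0.15 on the log2 scale (SE 0.0801, 95% interval -0.01 to 0.32) and was not called (edgeR, adjusted p = 0.243).

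MXI1 (chr10:110207605-110287365, plus strand), a repressor also called MXD2, ranged from 14.6 to 19.2 CPM over the 8 libraries, and its groups overlapped in every comparison. MXD1 (chr2:69897688-69942945, plus strand), the first MXD protein described and a marker of differentiating cells, was at 17.2 and 16.2 CPM in SMARCB1 DMSO and 16.2 and 15.3 CPM in SMARCB1 Dox. In the GFP line MXD1 was at 27.8 and 24.8 CPM with DMSO and 28.2 and 27.6 CPM with Dox. The Dox effects in the SMARCB1 line were 0.06 (95% interval -0.19 to 0.31) for MXI1 and -0.08 (-0.30 to 0.14) for MXD1 on the log2 scale, and neither was called.

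MXD3 (chr5:177301461-177312757, minus strand), a repressor linked to dividing cells, was the lowest of the genes tested, with 33 to 86 counts per library. Its level was 1.13 and 1.76 CPM in SMARCB1 DMSO, 2.42 and 1.86 CPM in SMARCB1 Dox, 1.33 and 2.11 CPM in GFP DMSO and 1.46 and 1.56 CPM in GFP Dox. The SMARCB1 Dox libraries were above the SMARCB1 DMSO libraries by a small margin, and the log2 fold change of 0.55 had a 95% interval from -0.07 to 1.18 (edgeR, adjusted p = 0.258). MXD3 shares 19.5% of its exon bases with RAB24 on the same strand and 24.2% with PRELID1 on the other strand, so its counts are uncertain.

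MNT (chr17:2384073-2401104, minus strand), the MAX partner that represses MYC targets in most cell types, ranged from 17.0 to 19.9 CPM in the 4 SMARCB1-line libraries and from 21.5 to 25.04 CPM in the 4 GFP-line libraries. MGA (chr15:41621134-41773081, plus strand), the large scaffold of a repressive Polycomb complex, ranged from 95.1 to 113 CPM and from 126 to 138 CPM in the same libraries. Within each line the Dox and DMSO libraries of both genes overlapped. The exons of MNT overlap those of a long noncoding RNA gene on the other strand over 12.2% of their bases. As the strand option is not stated, the counts of MNT carry this uncertainty. The Dox effects in the SMARCB1 line were -0.07 (95% interval -0.31 to 0.17) for MNT and -0.02 (-0.20 to 0.16) for MGA on the log2 scale, and neither was called.

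Over the network, 1 of 9 genes tested was called in the SMARCB1 line (11.1%), beside 14% of all 15931 genes tested, with 5.69% of all genes called lower and 8.33% higher. The groups of 4 of the 9 genes did not overlap (MYC, MYCL, MXD3 and MXD4), beside 51.2% of all genes. The median log2 fold change of the 9 genes was -0.02. For the GFP line 0 of 9 were called, as were 0% of all genes, while 266 of all genes had an unadjusted p under 0.05 in edgeR (1.67%) and DESeq2 called 0. The difference of the Dox effects was called for 1 of 9 genes (MYC), beside 4.71% of all genes, 489 of them higher (3.07%) and 261 lower (1.64%), or 670 and 159 under scaling by library totals. The 1 network gene whose GFP groups did not overlap was MYC (beside 26.8% of all genes), where the margin between the nearest libraries was 169 to 170 CPM.

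**Figure D2:**
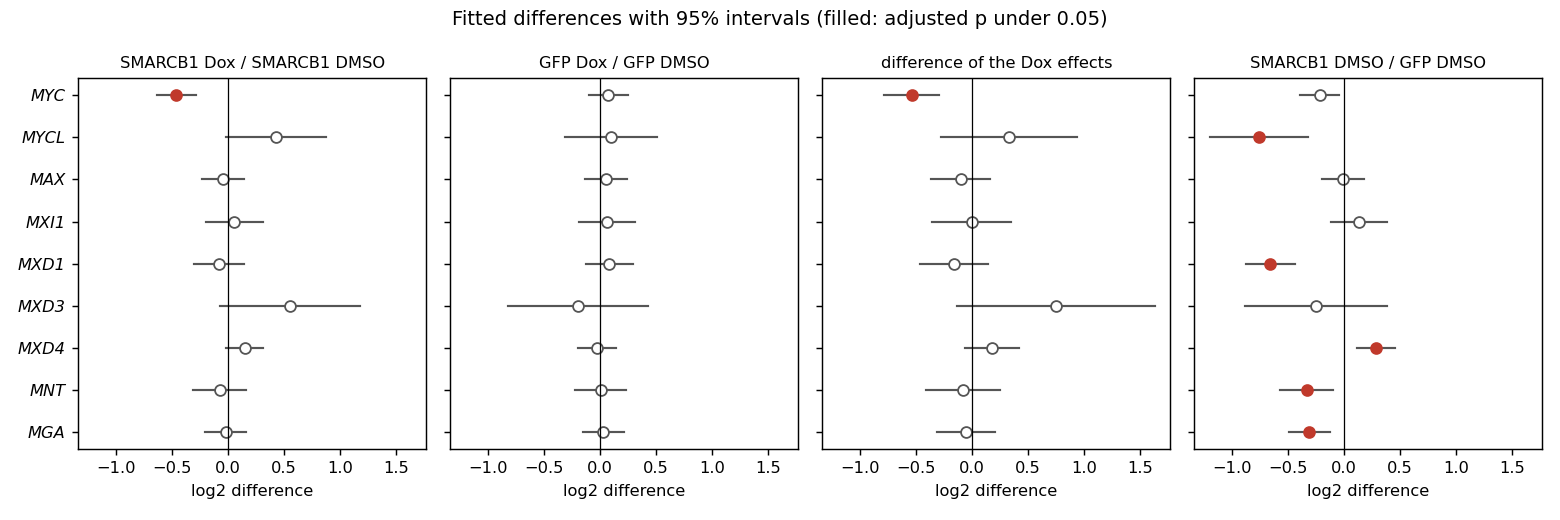
Log2 differences of the 9 network genes tested in each of the 4 comparisons (horizontal axis), with 95% intervals from edgeR as lines and filled points for genes called at an adjusted p under 0.05. In the first panel MYC alone is filled (-0.46), as it is in the third (-0.54), no point is filled in the panel of the GFP line, and 5 are filled between the lines without Dox.

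To compare levels between genes, CPM was divided by the length of all annotated exons in kilobases. On this scale MYC was the highest gene of the network in all 4 groups, at 23.3 CPM per kb in SMARCB1 DMSO, 16.9 in SMARCB1 Dox, 27.0 in GFP DMSO and 28.4 in GFP Dox. MAX followed at 8.67 to 9.33 CPM per kb in the group means, with MXD4 at 6.76 to 9.36 and MGA at 5.19 to 6.66. MXI1, MXD1 and MNT had group means between 2.02 and 4.39, and MYCL and MXD3 had means under 1 CPM per kb. The libraries of neighbours in this order overlapped for MXD4 and MAX in SMARCB1 Dox, for MXD4 and MGA in GFP Dox, and for MXI1 and MNT in both GFP groups, so those neighbours did not differ beyond their spread. MXD1 stood above MXI1 in both GFP groups and below it in both SMARCB1 groups. With the longest transcript in place of all exons, MYC was again the highest in all 4 groups, MNT stood above MXD1 in 3 of them, and in SMARCB1 Dox MAX stood above MXD4 and MXD3 above MYCL.

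Shares and ratios within a library do not depend on how libraries are scaled. MYC made up 43.7% and 41.8% of the summed CPM per kb of the network in SMARCB1 DMSO and 35.7% and 33.5% in SMARCB1 Dox. In the GFP line its share was 44.2% and 45.7% with DMSO and 45.1% and 46.3% with Dox. The share was thus lowest in the 2 SMARCB1 Dox libraries, with group means of 42.8 ± 1.33, 34.6 ± 1.54, 44.9 ± 1.09 and 45.7 ± 0.829% (SD, n = 2).

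The level of MYC per length, relative to the sum of the 6 repressors (4 MXD genes, MNT and MGA), was 1.12 and 1.02 in SMARCB1 DMSO and 0.806 and 0.693 in SMARCB1 Dox. In the GFP libraries this ratio was 1.13 and 1.19 with DMSO and 1.19 and 1.21 with Dox. MYC RNA per length was thus above the sum of these 6 genes in 6 libraries and below it in the 2 SMARCB1 Dox libraries. These are ratios of RNA, and protein levels were not measured in these libraries. Relative to MAX, MYC went from 2.60 ± 0.0962 to 1.95 ± 0.0622 in the SMARCB1 line and was 3.01 ± 0.226 and 3.05 ± 0.262 in GFP DMSO and GFP Dox (SD, n = 2). The 4 MXD genes together, relative to MAX, were at 1.60 ± 0.00662 in SMARCB1 DMSO and 1.78 ± 0.177 in SMARCB1 Dox, which was the wider spread of the 2. With 2 libraries against 2, an exact permutation test of such a ratio cannot give a two-sided p under 0.333, so the ratios are given as descriptions.

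**Figure D3:**
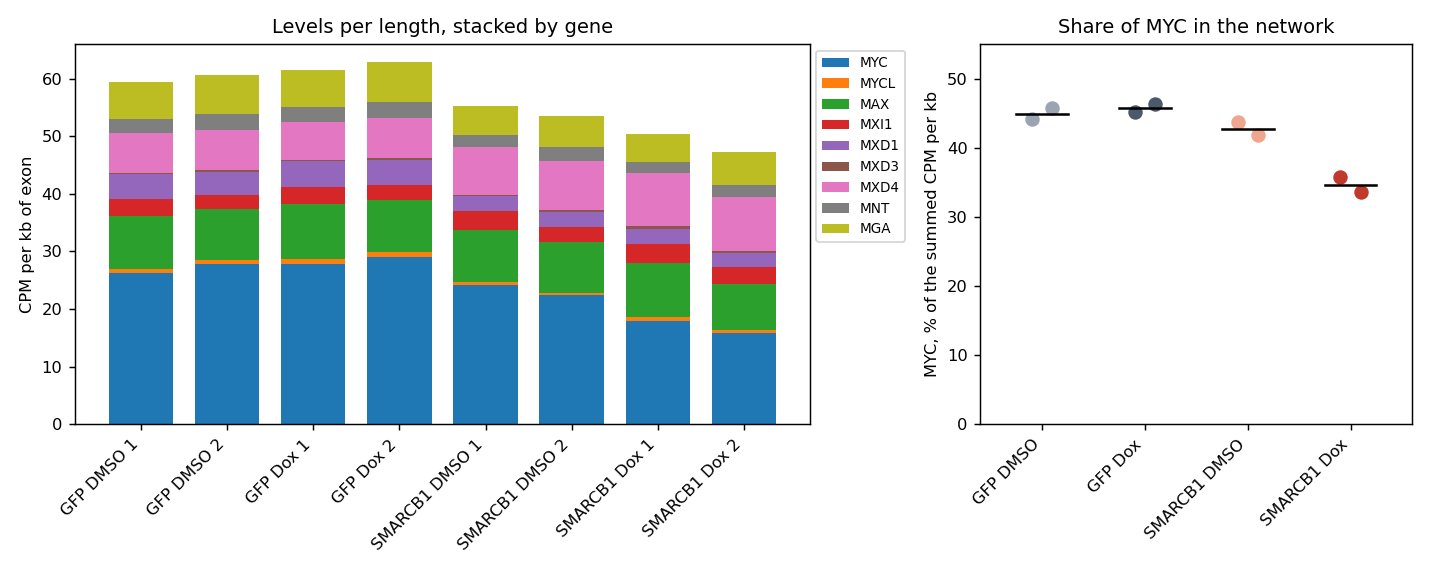
Left, CPM per kb of exon (vertical axis) of the 9 network genes with reads, stacked by gene, in each of the 8 libraries. Right, the share of MYC in that sum in percent, with 1 point per library and a line at the mean of 2, where the SMARCB1 Dox libraries are at 35.7% and 33.5% and the other 6 between 41.8% and 46.3%.

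Between the lines without Dox, MYCL, MXD1, MNT and MGA were lower and MXD4 was higher in SMARCB1 DMSO than in GFP DMSO. This made 5 of 9 genes tested (55.6%), beside 32% of all genes tested, of which 16.3% were called higher and 15.7% lower. The groups of 6 of the 9 genes did not overlap, beside 64.7% of all genes. MXD1 had a log2 fold change of -0.66 (SE 0.104, edgeR adjusted p = 3.21e-05) and was the 1 gene of the 5 that was called under all 15 alternatives. MYCL was lower by 1.69-fold (log2 fold change -0.76, SE 0.211, edgeR adjusted p = 0.00822), and was not called without SMARCB1 DMSO replicate 2 (adjusted p = 0.119) or GFP DMSO replicate 2 (adjusted p = 0.0887).

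MNT, at -0.33 (SE 0.113, edgeR adjusted p = 0.0281), and MGA, at -0.31 (SE 0.0885, adjusted p = 0.00983), were also lower in SMARCB1 DMSO on the log2 scale. Neither was called without SMARCB1 DMSO replicate 1 (edgeR adjusted p = 0.244 for MNT and 0.0656 for MGA) or without GFP DMSO replicate 2 (adjusted p = 0.304 and 0.114). MXD4 was higher, at 0.29 (SE 0.0808, edgeR adjusted p = 0.00836), and was not called under scaling by library totals (0.17, adjusted p = 0.167), without GFP DMSO replicate 1 (0.0600) or without GFP DMSO replicate 2 (0.0761). MYC, at -0.21 (SE 0.0836, 95% interval -0.39 to -0.04), was not called in this fit (edgeR, adjusted p = 0.0553) and was called in 9 of the 15 alternatives, with DESeq2 (adjusted p = 0.0415) and the fits without SMARCB1 Dox replicate 1 (0.0381), SMARCB1 Dox replicate 2 (0.0407) and SMARCB1 DMSO replicate 1 (0.0474) among them. MAX (-0.01), MXI1 (0.13) and MXD3 (-0.25) were not called. The count of 5 depended on 1 library, since 1 network gene was called without GFP DMSO replicate 2 and between 4 and 6 without any of the other libraries.

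Markers moved with the lines as well. Of the markers of rhabdoid cells, VIM was at 1280 ± 41.7 CPM in SMARCB1 DMSO and 707 ± 41.1 CPM in GFP DMSO, KRT8 at 339 ± 4.09 and 526 ± 33.2 CPM, and KRT18 at 268 ± 1.48 and 391.6 ± 6.11 CPM (SD, n = 2). Of 3 genes listed as fibroblast markers, COL1A1 had group means of 18.9 and 24.3 CPM in the SMARCB1 line and 527 and 528 CPM in the GFP line, and PDGFRA 0.413 and 1.39 against 67.2 and 68.3 CPM. THY1 had 0.216 and 0.524 against 2.47 and 2.19 CPM. The 3 genes summed to at most 26.3 CPM in the group means of the SMARCB1 line and to at least 596 CPM in those of the GFP line. CD3E was at 0 in every library and PTPRC at 0 to 0.0303 CPM in the group means. The part of these differences in the differences of the network genes between the lines was not tested.

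For the 6 network genes called in at least 1 comparison, the 2 protein-coding genes whose pattern over the 8 libraries was most like theirs were found among 9464 genes of at least 5 CPM (9465 for MYCL). The measure was the root mean square difference in log2 CPM after each gene was centred on its own mean. The nearest to MYC were MAP3K14, a kinase of NF-kappaB signalling, at 0.0539, and TRIM55, a muscle ubiquitin ligase, at 0.0650, where the median over all these genes was 0.329. MAP3K14 had group means of 42.2, 30.3, 49.8 and 50.4 CPM in SMARCB1 DMSO, SMARCB1 Dox, GFP DMSO and GFP Dox, and TRIM55 of 189, 132, 216 and 216 CPM. The nearest were ZBTB34 and TCTA to MXD1, GPR3 and TUBB3 to MYCL, EPC2 and H3-3A to MXD4, SMCHD1 and SUPT16H to MNT, and ECD and AKAP9 to MGA, at distances from 0.0209 to 0.0761. As every gene was compared over the same 8 libraries, a small distance is a description of likeness only.

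The wider pathway was described with 9 lists of genes named for their roles. The MLX arm is a parallel network in which MLX takes the place of MAX and pairs with the glucose-sensing factors MLXIP (MondoA) and MLXIPL. In the SMARCB1 line 1 of 4 genes tested rose and 0 fell (25% called, beside 14% of all genes). MLX had a log2 fold change of -0.03 and MLXIP of -0.05, neither called, and MLXIPL had too few reads to test, with group means of at most 0.261 CPM. TXNIP, a MondoA target that restrains glucose uptake, was at 38.1 and 47.0 CPM in SMARCB1 DMSO and rose to 54.9 and 60.4 CPM in SMARCB1 Dox, by 0.44 on the log2 scale (SE 0.143, edgeR adjusted p = 0.0445). The GFP line gave TXNIP a log2 fold change of 0.47 (SE 0.350) that was not called (edgeR, adjusted p = 1), and the difference of the 2 effects was -0.04 (95% interval -0.79 to 0.72, adjusted p = 0.980). The rise in the SMARCB1 line was not called with DESeq2 (adjusted p = 0.722), without either SMARCB1 Dox library (edgeR, adjusted p = 0.0891 and 0.209), without SMARCB1 DMSO replicate 1 (0.315) or without either GFP Dox library (0.0547 and 0.0570). Its paralogue ARRDC4 was at -0.31 and was not called (edgeR, adjusted p = 0.0522), but was without GFP Dox replicate 1 (0.0427) or replicate 2 (0.0422) and with a replicate block (0.0132).

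Between the lines without Dox, TXNIP stood far apart, with 0.355 and 1.30 CPM in GFP DMSO, a log2 difference of 5.63 (SE 0.222, edgeR adjusted p = 4.9e-15). MLX was also higher in SMARCB1 DMSO, at 26.8 ± 4.13 against 18.8 ± 0.622 CPM (SD, n = 2), a log2 difference of 0.51 (SE 0.114, edgeR adjusted p = 0.00137).

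Among 15 genes of the SIN3-HDAC corepressor, through which MXD proteins and MNT repress, 2 rose and 1 fell in the SMARCB1 line (20% called, beside 14% of all genes), with a median log2 fold change of 0.10. For the difference of the Dox effects 1 of the 15 was called (6.67%, beside 4.71% of all genes). SAP18 fell from 340 ± 21.7 to 220 ± 4.42 CPM (log2 fold change -0.63, SE 0.0925, edgeR adjusted p = 6.06e-05), and the difference from the GFP line was -0.67 (adjusted p = 0.00345). SAP30 rose by 0.49 on the log2 scale (edgeR, adjusted p = 0.00993) and was not called without SMARCB1 DMSO replicate 2 (adjusted p = 0.0708), and its difference from the GFP line, 0.46, was not called (adjusted p = 0.173). SAP130, which the rule for named genes did not select and which is named after its values were seen, rose by 0.30 (edgeR, adjusted p = 0.0142) and was not called without SMARCB1 DMSO replicate 1 (0.0766) or SMARCB1 Dox replicate 2 (0.141).

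Of 12 MGA complex partners, 1 rose and 0 fell (8.33% called, beside 14% of all genes), with a median log2 fold change of -0.06. RYBP, a subunit of variant Polycomb repressive complexes, was at 46.3 ± 2.0 CPM in SMARCB1 DMSO and 70.8 ± 2.14 CPM in SMARCB1 Dox (SD, n = 2), beside 45.8 ± 2.49 and 44.1 ± 1.51 CPM in GFP DMSO and GFP Dox. Its log2 fold change was 0.61 (SE 0.0839, edgeR adjusted p = 2.62e-05), and the difference from the GFP line was 0.66 (adjusted p = 0.00163). Of 12 MYC coactivators and partners, among them TRRAP, KAT5 and ZBTB17, edgeR and DESeq2 called 0 in the SMARCB1 line. Of all genes edgeR called 14%. Of the 12, 2 had an unadjusted p under 0.05 in edgeR, beside 26% of all genes. The count called was 1 under scaling by library totals and with a replicate block.

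Among 13 genes of MYC protein turnover, 1 rose and 1 fell (15.4% called, beside 14% of all genes), with a median log2 fold change of 0.14. PIM1, a kinase that phosphorylates and stabilises MYC, fell from 32.9 ± 5.14 CPM in SMARCB1 DMSO to 18.8 ± 2.07 CPM in SMARCB1 Dox and was at 36.9 ± 2.07 and 37.3 ± 2.30 CPM in GFP DMSO and GFP Dox (SD, n = 2). The change of PIM1 was -0.81 on the log2 scale (SE 0.112, edgeR adjusted p = 3.18e-05) and the difference from the GFP line -0.82 (SE 0.156, adjusted p = 0.00267). PLK1, a mitotic kinase also known to protect MYC from degradation, rose by 0.38 (SE 0.0849, edgeR adjusted p = 0.00369), and its difference from the GFP line, 0.35, was not called (adjusted p = 0.114). The calls of SAP18, RYBP, PIM1 and PLK1 in the SMARCB1 line held under all 15 alternatives.

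Of 28 MYC targets of ribosome biogenesis tested, 0 rose and 1 fell in the SMARCB1 line (3.57% called, beside 14% of all genes), with a median log2 fold change of -0.05. The gene called was POLR1B, a subunit of RNA polymerase I, which was at 82.4 ± 2.68 CPM in SMARCB1 DMSO and 68.0 ± 1.39 CPM in SMARCB1 Dox (log2 fold change -0.28, SE 0.0790, edgeR adjusted p = 0.0209). POLR1B was not called under scaling by library totals (-0.18, edgeR adjusted p = 0.191), with only the SMARCB1-line libraries in the fit (0.0617), or without SMARCB1 Dox replicate 1 (0.0679), SMARCB1 Dox replicate 2 (0.0955) or SMARCB1 DMSO replicate 1 (0.122). With a replicate block, 4 of the 28 were called in the SMARCB1 line, where 3149 of all genes were. For the difference of the Dox effects 0 of the 28 were called in the main fit, beside 4.71% of all genes. The promoters of 11 of the 22 list genes with a RefSeq window held CACGTG (50%), as did those of 12 of 24 metabolism targets (50%) and 0 of 7 MYC-repressed genes. Of all genes with a window, 8.77% held it.

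Of 27 MYC targets of metabolism and growth, 3 rose and 0 fell in the SMARCB1 line, with a median log2 fold change of 0.06. This was 11.1% called, beside 14% of all genes. For the difference of the Dox effects 1 of the 27 was called (3.70%, beside 4.71% of all genes). HK2, the hexokinase that commits glucose to glycolysis, rose from 34.1 ± 0.109 to 53.2 ± 1.95 CPM (log2 fold change 0.64, SE 0.0897, edgeR adjusted p = 3.34e-05), and the difference from the GFP line was 0.63 (adjusted p = 0.00479), which was not called without GFP DMSO replicate 2 (0.0518). The other two, named after their values were seen, were SHMT2, a mitochondrial enzyme of serine and one-carbon metabolism (0.38, edgeR adjusted p = 0.00545), and CDC25A, a phosphatase that activates cyclin-dependent kinases (0.30, adjusted p = 0.0327). SHMT2 was not called without SMARCB1 DMSO replicate 1 (edgeR adjusted p = 0.0664), and CDC25A was not called in 5 of the 15 alternatives, with adjusted p up to 0.340 without SMARCB1 Dox replicate 1. The number called in the SMARCB1 line was 8 under scaling by library totals and 10 with a replicate block. Of all genes, 2483 and 3149 were called under these 2 settings, beside 2234 in the main fit.

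Of 8 MYC-repressed genes tested, 2 rose and 2 fell (50% called, beside 14% of all genes), with a median log2 fold change of 0.13. With 1 library left out, 1 to 3 of the 8 were called, with 1 without SMARCB1 Dox replicate 1 and 2 without SMARCB1 DMSO replicate 1, and 2 were called under scaling by library totals. GADD45A, a stress-induced growth arrest gene, rose from 17.6 ± 0.675 to 26.0 ± 0.717 CPM (log2 fold change 0.56, SE 0.112, edgeR adjusted p = 0.00139), while its difference from the GFP line, 0.49, was not called (adjusted p = 0.103) but was with a replicate block (0.0404) and with the GC trend removed as well (0.0389). CDKN1B, the cyclin-dependent kinase inhibitor p27, fell by 0.37 on the log2 scale (edgeR, adjusted p = 0.0115) and was not called under scaling by library totals (adjusted p = 0.0633), without SMARCB1 Dox replicate 1 (adjusted p = 0.186) or without SMARCB1 DMSO replicate 1 (adjusted p = 0.0747). The other two, named after their values were seen, were the inhibitor CDKN1A (p21), which rose by 0.39 (edgeR, adjusted p = 0.0108), and the matrix gene THBS1, which fell by 0.30 on the log2 scale (adjusted p = 0.0411). CDKN1A was not called without SMARCB1 Dox replicate 1 (edgeR adjusted p = 0.193) or SMARCB1 DMSO replicate 2 (0.0895), and THBS1 was not called in 9 of the 15 alternatives, with adjusted p up to 0.586 without SMARCB1 DMSO replicate 1. For the difference of the Dox effects 0 of the 8 MYC-repressed genes were called in the main fit, beside 4.71% of all genes. Of the 8, 4 had an unadjusted p under 0.05 in edgeR for this difference, beside 16.2% of all genes. The count called reached 3 under an alternative that kept all 8 libraries. PVT1, the long noncoding RNA gene beside MYC, was at 32.5 ± 3.47 CPM in SMARCB1 DMSO and 28.6 ± 0.0911 CPM in SMARCB1 Dox, which was not called (-0.18, 95% interval -0.39 to 0.02, edgeR adjusted p = 0.259). MYCNOS, antisense to MYCN, had no count in any library.

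In the GFP line, 0 genes of the 9 lists were called by edgeR. Between the lines without Dox, 9 of the 28 ribosome biogenesis targets were lower and 0 higher in SMARCB1 DMSO (32.1%, beside 32% of all genes called), with a median log2 difference of -0.17. The metabolism targets went both ways, with 6 higher and 5 lower of 27 (40.7% called). So did the MYC-repressed genes, with 3 and 3 of 8 (75% called). Of all genes, 16.3% were called higher and 15.7% lower. PVT1 was higher in SMARCB1 DMSO, by 0.56 on the log2 scale (SE 0.100, edgeR adjusted p = 0.000153), where MYC had -0.21. Under scaling by library totals the median of all genes moved from 0.01 to -0.10 in this comparison, the split of all calls from 2600 higher and 2505 lower to 1732 and 3658, and 15 of the 28 ribosome biogenesis targets were called, all lower.

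**Figure D4:**
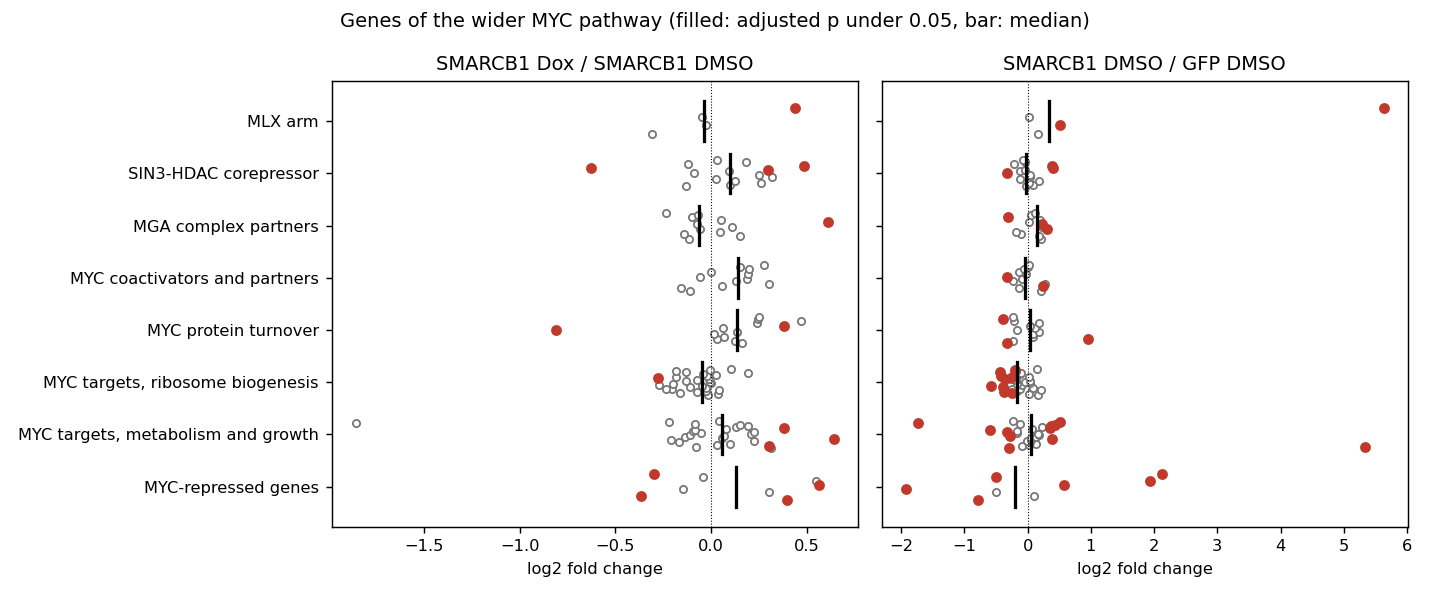
Log2 fold changes (horizontal axis, with a different range in each panel) of the tested genes in 8 lists of the MYC pathway, for Dox in the SMARCB1 line and for the lines without Dox, with 1 point per gene, filled where called, and a bar at the median. In the left panel the medians lie between -0.06 and 0.14, and the unfilled point furthest to the left is TERT, which was low and not called.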

How the data were processed

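The files hold raw counts of reads by gene. The authors obtained these counts with STAR and HTSeq (exon features, intersection-strict mode, GENCODE annotation). Versions of these tools and the strand option are not given in the sources used here. The submitters' processing notes name hg38. The labels name a ribosome profiling library kit and the study's methods a directional RNA kit, so the library chemistry is uncertain. The 5 entries naming no gene held 27% to 29.3% of the reads and were left out. Gene totals ran from 29632090 to 37597477 counts, so that 3 counts, the floor for a gene without reads, correspond to 0.0798 to 0.101 CPM. Floors cover counting error only.

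Symbols, positions and exon lengths came from GENCODE v44, which matched 62625 of 69215 identifiers. edgeR (4.0.16, R 4.3.3) was run with its default expression filter (15931 genes), TMM scaling and quasi-likelihood tests, fitted to all 8 libraries with a mean for each of the 4 groups. The 4 comparisons were Dox against DMSO in each line, the difference of these effects, and SMARCB1 DMSO against GFP DMSO. Calls were made at a Benjamini-Hochberg adjusted p under 0.05 over all genes tested. Standard errors were derived from the log2 fold change and its F statistic. Alternatives were DESeq2 (1.42.0), DESeq2 size factors, library totals, no filter, a replicate block without and with removal of a GC trend, only the libraries compared, and each library left out. The fit was tested on simulated counts with known changes.

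The 10 network genes, the 9 lists and the markers were chosen with earlier results of these data known. From each list the text names the called genes with the largest rise and fall in the SMARCB1 line at a mean of at least 5 CPM, all genes of the MLX arm and both neighbours of the MYC genes. Other list genes named with values were chosen after their values were seen.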

Additional observations from a re-analysis of the deposited data

Results flagged for a closer look

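The Dox effect differed between the SMARCB1 line and the GFP line, by a test of the difference itself, for 1 network gene and 4 genes of the wider pathway. For MYC the difference was -0.54 on the log2 scale (SE 0.118, edgeR, Benjamini-Hochberg adjusted p = 0.00898), with both SMARCB1 Dox libraries below both SMARCB1 DMSO libraries. For the MYC-stabilising kinase PIM1 it was -0.82 (SE 0.156, edgeR adjusted p = 0.00267). SAP18 of the SIN3 corepressor gave -0.67 (SE 0.130, edgeR adjusted p = 0.00345). The Polycomb subunit RYBP gave 0.66 (SE 0.119, edgeR adjusted p = 0.00163). The hexokinase HK2 gave 0.63 (SE 0.129, edgeR adjusted p = 0.00479). The difference was called for 1 of 9 network genes tested and for 4.71% of all genes tested. In the lists it was called for 1 of 13 turnover genes (7.69%) and 1 of 15 SIN3-HDAC genes (6.67%). The same held for 1 of 12 MGA partners (8.33%) and 1 of 27 metabolism targets (3.70%), beside 4.71% of all genes. It was called for 0 of 28 ribosome biogenesis targets, 0 of 12 coactivators, 0 of 8 MYC-repressed genes and 0 of 4 MLX arm genes. Under alternatives that kept all 8 libraries, up to 3 turnover genes, 3 MYC-repressed genes, 2 SIN3-HDAC genes and 1 ribosome biogenesis target were called. Counts of 0 or 1 per list are not read as results about the lists. The calls of MYC and HK2 were each lost in some fits that left out 1 GFP library.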

How the results depend on the processing

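The fall of MYC in SMARCB1 Dox was called under each of the 15 alternatives. Of the comparisons of named genes under alternatives, 839 kept their direction and their side of the threshold, 46 lost a call, 16 gained one and 45 changed sign, and the cause was not tested. All of the changes of sign were in values that were not called. With library totals the Dox effect in the SMARCB1 line changed sign for MAX (0.0470), MXD1 (0.0158), MNT (0.0168), MGA (0.0720), MLX (0.0692) and MLXIP (0.0444), as did the difference between the Dox effects for MXI1 (0.0780) and MGA (0.0271). With the GC trend removed and a replicate block, MGA was at 0.0416 in the SMARCB1 line, and MXI1 and MGA were at 0.0516 and 0.0136 for the difference between the effects. For MXI1 that difference was 0.000229 with DESeq2 size factors and 0.00103 without the filter on low counts.

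With 1 library left out at a time, log2 values changed sign within these ranges. In the SMARCB1 line they were -0.18 to 0.0717 for MAX, -0.0536 to 0.18 for MXI1, -0.18 to 0.0468 for MNT, -0.15 to 0.10 for MGA, -0.18 to 0.14 for MLX and -0.11 to 0.00502 for MLXIP. For the GFP line they were -0.00566 to 0.21 for MYCL, -0.00481 to 0.10 for MAX, -0.0571 to 0.18 for MXI1, -0.48 to 0.18 for MXD3, -0.0725 to 0.00908 for MXD4, -0.10 to 0.12 for MNT and -0.0247 to 0.0816 for MGA. For the difference of the Dox effects they were -0.23 to 0.0192 for MAX, -0.12 to 0.12 for MXI1, -0.19 to 0.0408 for MNT and -0.18 to 0.0750 for MGA, and for the lines without Dox -0.0475 to 0.0289 for MAX and -0.61 to 0.12 for MXD3.

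The number of genes called in the SMARCB1 line was 1284 to 2088 with 1 library left out (2234 with all), lowest without SMARCB1 Dox replicate 1. For the difference of the Dox effects it was 390 to 805 (750 with all), and of the network genes 0 to 1 were called, as were 1 to 6 between the lines without Dox. Where an arm was left with 1 library, the spread of the other groups was assumed for it. In the GFP line edgeR called 1 gene without the filter on low counts. With the replicate number as a block, 1282 genes were called for the difference between the Dox effects, and 1253 with the GC trend removed as well. Network calls under the block were those without it, apart from MYC between the lines without Dox (edgeR adjusted p = 0.0169). Deviations of libraries with the same number correlated at 0.0309 to 0.148 between groups, over only 2 numbers, so the numbers are not taken to pair the libraries. Depth limits what can be said of MYCN, with 0 counts in each library, and of MXD3, with 33 to 86 counts per library.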
